A study of Mus musculus with 12 samples.

Results

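The mitochondrial carriers of the SLC25 family were examined in fasted liver of Sirt4 knockout and wild-type mice. SIRT4 is a sirtuin found in the mitochondrial matrix. The group comprised all mouse genes whose symbol starts with Slc25a, together with the uncoupling proteins Ucp2 and Ucp3 and without Slc25a5, Slc25a13, Slc25a15 and Slc25a20. Of 46 such genes in the reference table, 43 were measured, among 17997 measured genes in all. The 3 without a probe set of their own were Slc25a21, Slc25a43 and the pseudogene Slc25a5-ps. Each gene was read from its brightest probe set, and the 43 carriers had 91 probe sets between them.

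RNA from whole liver was hybridised to Affymetrix mouse genome arrays, 1 array per mouse. The 6 knockout mice (KO, labelled SIRT4 KO) and the 6 wild-type mice (WT, labelled SIRT4 WT) were male littermates of strain 129SV, 7 to 8 months old and untreated, and all livers were taken after a fast of 16 h. The labels do not describe the knockout allele or say whether the deletion was restricted to a cell type. Whole liver holds several cell types, so fewer cells of a type and less RNA per cell cannot be told apart.

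SLC25 carriers are small proteins of the mitochondrial inner membrane, built from repeats of a pair of membrane helices, that exchange metabolites, nucleotides and cofactors between cytosol and matrix. In fasted liver they link fat oxidation, gluconeogenesis and amino acid breakdown, because citrate, malate, aspartate, ATP, coenzyme A and NAD cannot otherwise cross that membrane. The uncoupling proteins are members of the same fold: Ucp2 is made by macrophages as well as by other cells, and Ucp3 is best known in skeletal muscle and brown fat and is a target of PPAR receptors.

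No carrier passed the gene test. With limma on log2(intensity + 50) and Benjamini-Hochberg adjustment over all 17997 genes at a threshold of 0.05, 0 of 43 carriers were higher (0.0% of all genes were) and 0 of 43 were lower (0.00556% of all genes, the 1 gene being Sirt4). Adjusted p-values of the carriers ran from 0.769 to 0.997. Before adjustment, 4 of 43 carriers, or 9.3%, had p under 0.05, all with a higher mean in KO, against 6.3% of all genes (3.13% higher and 3.16% lower). These 4 were Slc25a10, Slc25a42, Slc25a44 and Slc25a35. Of these 4, 0 remained without KO replicate 4, 1 without WT replicate 5, and 2 to 4 without any other single mouse. None of the 4 had an unadjusted p under 0.05 without the 3 KO arrays whose titles end in -2, where 1 carrier did (Slc25a30, lower), or without WT replicates 5 and 6, where 2 did (Ucp3, higher, and Slc25a33, lower). Of all 17997 genes, 754 and 940 had such a p in these 2 settings. No carrier had groups that did not overlap (0 of 43, against 0.25% of all genes). In the authors' deposited table, 2 of the 91 carrier probe sets had P under 0.05, both of Slc25a10 and both higher in KO, against 1.7% of all probe sets, and 0 remained after Benjamini-Hochberg adjustment.

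The estimated differences were small on log2(intensity + 50), a scale that understates changes of dim carriers. A mean intensity under 50 was found for 10 of the 43. With an offset of 1, Slc25a35 gave 0.31 in place of 0.13 and Slc25a24 gave 0.20 in place of 0.082. With the offset of 50, log2 fold changes of the 43 carriers, KO over WT, ran from -0.16 (Slc25a33) to 0.22 (Slc25a25). Their median was 0.022 against 0.0006 over all genes. The fold change was above 0 for 27 carriers and below 0 for 16, and 50.4% of all genes were above 0. The bounds of the 95% intervals reached -0.45 (Slc25a31) and 0.49 (Slc25a25) at their widest. A miss of the threshold does not show that a carrier was the same in both genotypes. The intervals give the sizes that these mice leave possible on the scale with the offset.

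**Figure D1:**
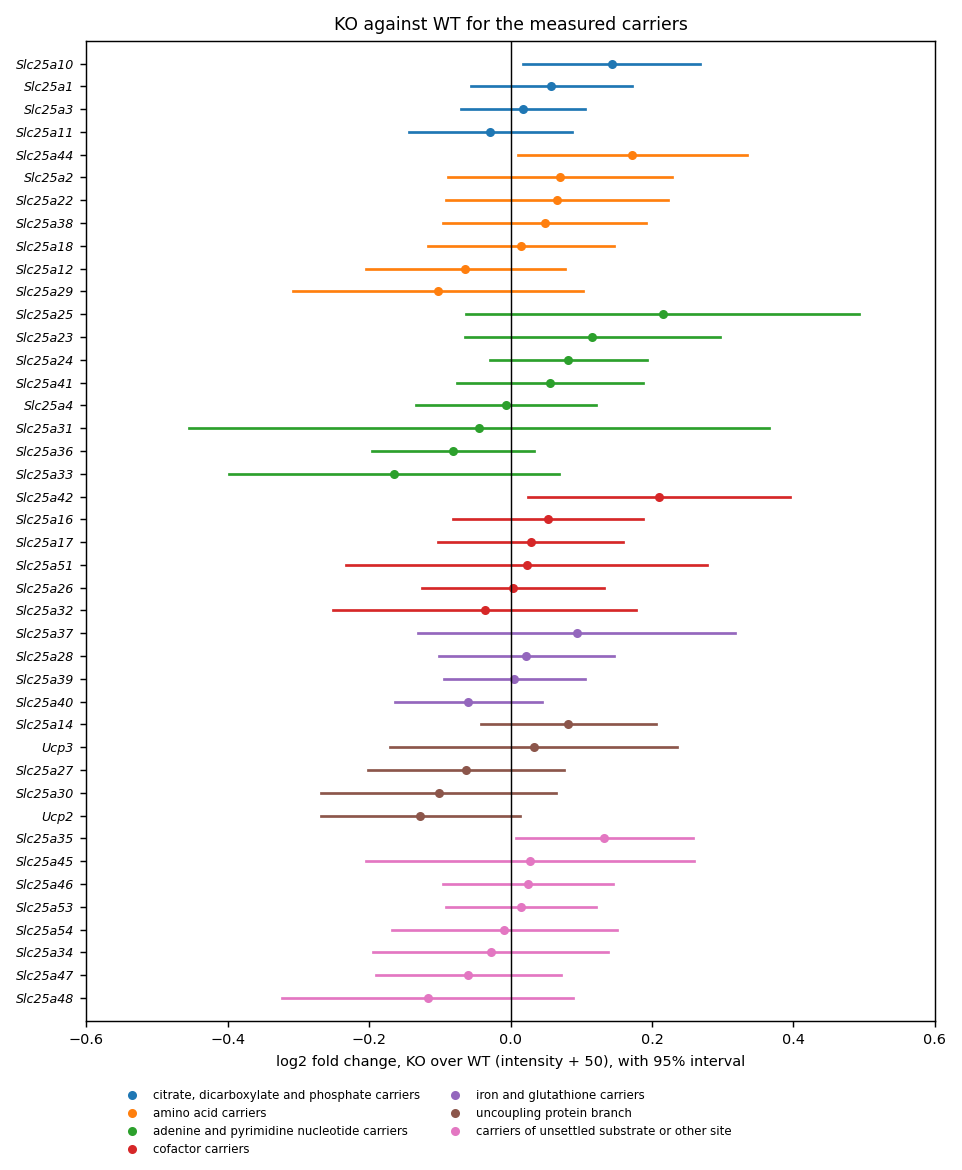
Log2 fold change of 42 measured carriers, KO over WT on log2(intensity + 50), with its 95% interval from limma, coloured by the kind of substrate. The estimates lie between -0.16 and 0.22, and the intervals of Slc25a10, Slc25a42, Slc25a44 and Slc25a35 do not cross 0.

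Sirt4 itself read 81.0 to 120.68 in KO mice (median 107) and 153.3 to 186.99 in WT mice (median 175), without overlap (log2 fold change -0.53, SE 0.071, limma adjusted p = 0.0358). The sources used here do not say whether its probe set lies in the deleted part. All 10 hepatocyte markers, among them Alb and Hnf4a, were above the array median on at least 1 array, with summed intensities of 124869 to 132207 in KO and 123410 to 131472 in WT. WT replicates 5 and 6 stood apart in acute phase genes, with means of 1.59 and 1.27 (centred log2), as did KO replicate 4 at 0.97, against -0.76 to -0.080 in the other 9 mice. The same WT replicates had the lowest means of PPARalpha targets, -0.22 each, against -0.031 to 0.11 in the other 10 mice. Title numbers fell into a 7200 series (5 KO, 2 WT) and a 7500 series (1 KO, 4 WT), and the titles of 3 KO arrays ended in -2. The labels explain neither.

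Among the carriers of citrate, dicarboxylates and phosphate, Slc25a10 stood nearest to a difference. Slc25a10 encodes the dicarboxylate carrier, which exchanges malate and succinate for phosphate. It read 1816 to 2111 in KO mice (median 2049) and 1609 to 1979 in WT mice (median 1796). KO replicates 1, 4, 5 and 6 lay above every WT mouse, while KO replicates 2 and 3 lay among the WT values. This gave a log2 fold change of 0.14 (SE 0.059, 95% interval 0.017 to 0.27; limma adjusted p = 0.769). The other Slc25a10 probe set gave 781 ± 59.9 in KO and 678 ± 65.0 in WT (SD, n = 6 each), a log2 fold change of 0.19 (limma over all probe sets, adjusted p = 0.831). In the authors' deposited table the 2 Slc25a10 probe sets had fold changes of 1.11 and 1.15. Without the 3 KO arrays whose titles end in -2, the log2 fold change was 0.087.

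The other 3 of this kind differed little. Slc25a1, the citrate carrier that supplies cytosolic acetyl-CoA, read 1538 ± 115 in KO and 1473 ± 53.6 in WT, a log2 fold change of 0.058. Slc25a3, the phosphate carrier, read 6473 ± 155 in KO and 6398 ± 207 in WT (0.017, 95% interval -0.071 to 0.10), the narrowest interval of the 43 carriers. Slc25a11, the oxoglutarate/malate carrier of the malate-aspartate shuttle, read 1113 ± 51.7 in KO and 1138 ± 84.3 in WT (-0.029).

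Of the 7 amino acid carriers, 5 had a fold change above 0 and 2 below, and 1 had an unadjusted p under 0.05. That 1 was Slc25a44, which brings branched-chain amino acids into mitochondria. Its brightest probe set read 198 to 271 in KO mice (median 218) and 164 to 240 in WT mice (median 187). All KO mice were above the WT median, but WT replicate 1, at 240, was above 5 of the KO mice. This was 0.17 on the log2 scale (SE 0.076; limma adjusted p = 0.779). The other probe sets of Slc25a44 had the opposite sign, at -0.040 and -0.083, and the mean over its probe sets gave 0.016. With a term for title series the value was 0.11, and in the 7200 series alone 0.094.

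Slc25a22, a mitochondrial glutamate carrier, read 1323 ± 145 in KO and 1258 ± 90.5 in WT, a log2 fold change of 0.066 (limma adjusted p = 0.923). KO replicate 2, at 1042, lay below every other mouse. Without it the log2 fold change was 0.13 (limma adjusted p = 0.882), while the 7200 series alone gave -0.019, the set without the KO arrays titled -2 gave 0.017 and a term for title series gave 0.029. Slc25a12, the aspartate/glutamate carrier of the malate-aspartate shuttle, read 417 ± 25.4 in KO and 439 ± 49.7 in WT (-0.064). Slc25a29, a carrier of basic amino acids, read 432 ± 46.2 in KO and 471 ± 79.5 in WT (-0.10), with all 6 KO mice below the WT median of 508. The WT mice were split: replicates 1, 3, 4 and 5 were above every KO mouse, and replicates 2 and 6 (386.53 and 356.86) below every KO mouse (lowest 386.7). Fitting title series as a term gave -0.026 for Slc25a29. The remaining members (Slc25a2, Slc25a18 and Slc25a38) had log2 fold changes of 0.070, 0.014 and 0.048.

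The nucleotide carriers held both ends of the range. Slc25a25, a calcium-regulated carrier that exchanges ATP-Mg for phosphate, read 408 to 737 in KO mice (median 560) and 366 to 647 in WT mice (median 451). The groups overlapped over most of that range, and 1 KO mouse, replicate 4 at 737, was above all WT mice. The log2 fold change of 0.22 (SE 0.13, limma adjusted p = 0.845) had the opposite sign in the 7200 title series alone (-0.041) and was 0.039 once title series was fitted as a term. Without KO replicate 4 it was 0.14, and without WT replicates 5 and 6 also 0.14.

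Slc25a33, a pyrimidine nucleotide carrier, read 539 to 821 in KO mice (median 596) and 624 to 885 in WT mice (median 721). KO replicates 3 to 6 were below every WT mouse, and KO replicates 1 and 2 lay among the higher WT values. As a log2 fold change this was -0.16 (SE 0.11; limma adjusted p = 0.853). Fitting title series as a term gave -0.31 (limma adjusted p = 0.838), the 7200 series alone gave -0.32, and leaving out WT replicates 5 and 6 gave -0.25.

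Slc25a36, the other pyrimidine nucleotide carrier, read 69.9 ± 2.59 in KO and 77.2 ± 10.1 in WT (-0.082). Slc25a23 and Slc25a24, relatives of Slc25a25 with the same exchange, had log2 fold changes of 0.12 and 0.082. Slc25a23 gave 0.052 without KO replicate 1 and 0.015 without the KO arrays titled -2. Slc25a4, the ADP/ATP carrier of heart and muscle, read 111 ± 12.2 in KO and 112 ± 10.6 in WT (-0.0065). Slc25a31, the ADP/ATP carrier of testis, read 5.94 to 53.7 in KO and 7.84 to 85.8 in WT, where WT replicate 1 was the highest, and was under the array median on 10 of 12 arrays. Slc25a41 was under the array median on all 12 arrays and had a log2 fold change of 0.056.

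Of 7 cofactor carriers, 6 had a fold change above 0. Slc25a42, which brings coenzyme A into mitochondria, read 531 to 654 in KO mice (median 566) and 378 to 559 in WT mice (median 533). The lowest values were those of WT replicate 6 (378) and WT replicate 5 (446), and the other 4 WT mice lay between 511 and 559, within or just below the KO range. KO over WT, this was 0.21 on the log2 scale (SE 0.087; limma adjusted p = 0.772). Without WT replicates 5 and 6 it was 0.087, without WT replicate 6 alone 0.14, in the 7200 series alone 0.14, and as the mean over probe sets 0.066. The part of the acute phase and PPARalpha differences of these 2 mice in the Slc25a42 value was not tested.

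Slc25a51, the NAD carrier, read 556 ± 44.6 in KO and 559 ± 145 in WT, a log2 fold change of 0.023 (95% interval -0.23 to 0.28). The linear mean was thus slightly lower in KO while the mean of the log2 values was slightly higher. The WT mice ran from 417 (replicate 5) to 786 (replicate 6), a range that enclosed all KO mice. Other log2 fold changes in this group were those of Slc25a16 (0.052), Slc25a17 of peroxisomes (0.028), the S-adenosylmethionine carrier Slc25a26 (0.0036) and the folate and FAD carrier Slc25a32 (-0.037).

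**Figure D2:**
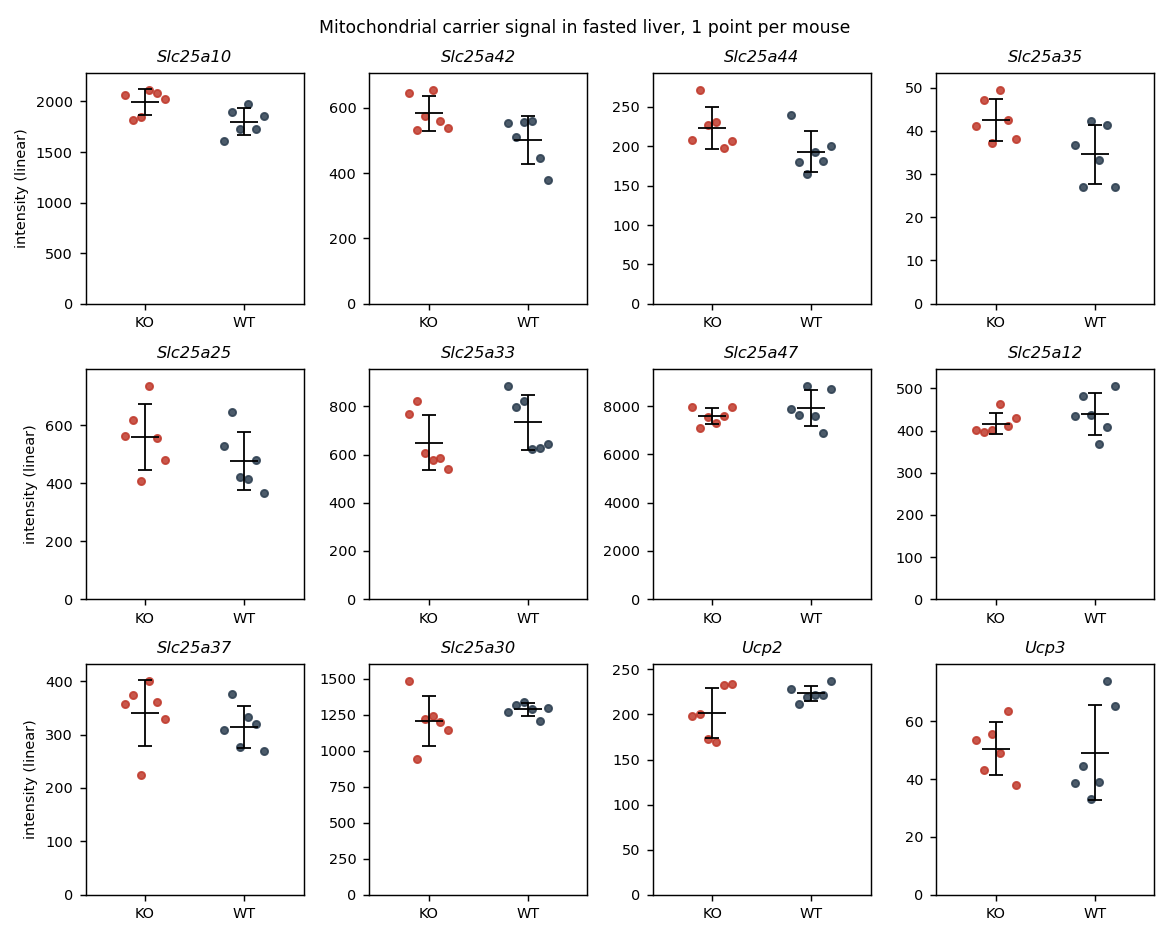
Linear intensity of 12 carriers in each mouse, KO left and WT right in each panel. Points are mice, and the bar and whiskers give the mean and SD of 6 mice. KO and WT points overlap in all 12 panels, and the 4 lowest KO values of Slc25a33 lie below all WT mice.

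Of the 4 iron and glutathione carriers, none had an unadjusted p under 0.05 with all mice. Slc25a37 (mitoferrin 1), the iron importer of erythroid cells, read 224 to 400 in KO mice (median 360) and 269 to 377 in WT mice (median 314). KO replicate 3, at 224, was the lowest mouse of all, and the other 5 KO mice were above the WT median. The log2 fold change was 0.093 (limma adjusted p = 0.923), and without KO replicate 3 it was 0.19 (limma adjusted p = 0.786). It was -0.011 in the 7200 series alone, 0.0038 without the KO arrays titled -2 and 0.036 with a term for title series. Its homologue Slc25a28 (mitoferrin 2), which serves other tissues, gave 0.022. Slc25a39, which imports glutathione, read 9003 ± 182 in KO and 8982 ± 533 in WT (0.0051). Slc25a40, which resembles Slc25a39, gave -0.060, with 3 KO mice below every WT mouse.

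Slc25a37 was also set against erythroid markers. Over the 12 mice, Pearson's r between Slc25a37 and the mean of 7 measured erythroid markers was 0.033 (permutation p = 0.92) and Spearman's rho was -0.063 (permutation p = 0.851). Within KO mice r was -0.080 and within WT mice 0.059 (exact permutation p = 0.907 and 0.894). Without the 2 mice farthest from the median of the marker mean, WT replicates 3 and 4, r was -0.16. This was 1 of 3 such relations computed, with adjusted p = 0.92 for r and 0.851 for rho.

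In the uncoupling protein branch, 2 of 5 members had a fold change above 0. Ucp2, whose protein exports short dicarboxylates from the matrix, read 169 to 234 in KO mice (median 199) and 212 to 237 in WT mice (median 222). KO replicates 1 to 4 were below every WT mouse, and KO replicates 5 and 6, at 233 and 234, stood within the WT range. The difference was -0.13 on the log2 scale (SE 0.066; limma adjusted p = 0.804). The other probe sets of Ucp2 gave -0.015 and 0.081, the mean over probe sets -0.021, and a term for title series -0.078.

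Ucp2 was also set against macrophage markers. All 16 Kupffer cell and macrophage markers had a fold change below 0, with a median of -0.32, and 14 had an unadjusted limma p under 0.05 (3.16% of all genes were lower at that level) while 0 passed after adjustment over all genes. Their summed intensity ran from 4316 to 7575 in KO and from 5097 to 10052 in WT. None was at 0, and none was below the array median on every array. B cell markers were lower as well: all 6 had a fold change below 0, 3 with an unadjusted limma p under 0.05 and 0 after adjustment. Their log2 fold changes were uneven, from -0.67 to -0.0015 with a median of -0.11, and Cd79a was below the array median on every array. Their summed intensity was 272 to 338 in KO and 378 to 600 in WT, without overlap. Over the 12 mice Ucp2 and the macrophage marker mean had r = 0.52 (permutation p = 0.0833, adjusted p = 0.125) and rho = 0.39 (permutation p = 0.21, adjusted p = 0.63). Within genotype r was 0.35 in KO and 0.49 in WT (exact permutation p = 0.5 and 0.311), and it was 0.20 without KO replicate 3 and WT replicate 6, the 2 mice farthest from the median. Without the KO arrays titled -2 it was 0.74. The part of these markers in the Ucp2 value was not tested.

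Ucp3 read 38.2 to 63.6 in KO mice (median 51.5) and 33.2 to 73.9 in WT mice (median 41.9), a log2 fold change of 0.033 (limma adjusted p = 0.978). WT replicates 5 and 6, at 73.9 and 65.2, were above all 10 other mice, and the other 4 WT mice lay between 33.2 and 44.6. Without those 2 mice the log2 fold change was 0.18 (limma adjusted p = 0.945). Ucp3 is close to the array median of 36.6 to 38.7, where signal is near background. Skeletal muscle and adipocyte markers had summed intensities of 256 to 351 in KO and 287 to 372 in WT, with Adipoq, Lep and Myh4 below the array median on every array.

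Ucp3 and PPARalpha targets ran in opposite directions over all mice. With the mean of 29 measured PPARalpha targets, r was -0.53 (permutation p = 0.0815, adjusted p = 0.125) and rho -0.25 (permutation p = 0.444, adjusted p = 0.666). Without WT replicates 5 and 6, the 2 mice farthest from the median, r was 0.31, so the negative sign rests on them. Within the 6 WT mice, which include these replicates, r was -0.91 (unadjusted exact permutation p = 0.0361) and rho -0.66 (exact permutation p = 0.175). Within KO mice r was -0.31 (exact permutation p = 0.55). Of the targets themselves, 25 of 29 had a fold change above 0 and 0 passed the adjusted threshold with limma. An unadjusted p under 0.05 was found for 7, all higher, against 3.13% of all genes higher at that level.

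Within the 7 mice of the 7200 title series, r was 0.50 for Ucp2 with macrophage markers, 0.004 for Slc25a37 with erythroid markers and 0.43 for Ucp3 with PPARalpha targets (exact permutation p = 0.258, 0.996 and 0.325). No value was computed over the 5 mice of the 7500 series, since 6 mice were taken as the least for a correlation. The sign for Ucp3 was thus positive within the 7200 series, which does not hold WT replicates 5 and 6.

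**Figure D3:**
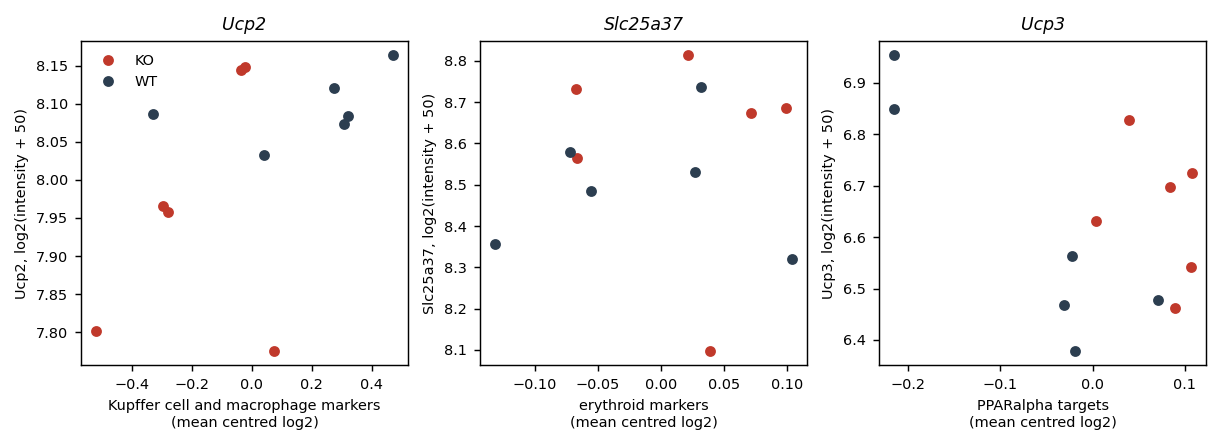
Log2(intensity + 50) of Ucp2, Slc25a37 and Ucp3 in each mouse (vertical axes) against the mean of the marker or target list named below each panel (centred log2). WT replicates 5 and 6 are the 2 points at upper left in the panel of Ucp3 and PPARalpha targets.

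Slc25a30, a kidney-rich member of the branch, read 943 to 1481 in KO mice (median 1209) and 1209 to 1340 in WT mice (median 1293). KO mice held both the lowest value (replicate 2) and the highest (replicate 1), and the WT mice lay in between. The log2 fold change was -0.10 (limma adjusted p = 0.873), -0.16 without KO replicate 1 and -0.037 without KO replicate 2. Its other probe sets of mean intensity 50 or more gave 0.17, 0.10 and -0.0052. Without the KO arrays titled -2 the log2 fold change was -0.20 (limma adjusted p = 1.0). Slc25a14 and Slc25a27, better known from brain, gave 0.082 and -0.063.

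Of the 8 carriers whose substrate is unsettled or that sit elsewhere, 4 were above 0 and 4 below. Slc25a35 had an unadjusted p under 0.05, at 37.3 to 49.4 in KO mice (median 41.7) and 26.9 to 42.2 in WT mice (median 35.1). KO replicates 2, 4 and 5 were above all WT mice, and WT replicates 3 and 5 lay within the KO range. The estimate was 0.13 on the log2 scale (SE 0.059; limma adjusted p = 0.779), and 0.22 with an offset of 16 in place of 50. Signal was below the array median on 5 of 12 arrays.

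Slc25a47, a carrier made almost solely by hepatocytes, read 7111 to 7979 in KO mice (median 7568) and 6900 to 8837 in WT mice (median 7751). The KO range lay inside the WT range, and the log2 fold change was -0.060 (95% interval -0.19 to 0.071; limma adjusted p = 0.915). Slc25a48 read 77.8 ± 22.2 in KO and 87.1 ± 7.75 in WT (-0.12), with 3 KO mice below and 2 above every WT mouse, and 0.0052 without the KO arrays titled -2. Slc25a46, which acts at the outer membrane in mitochondrial dynamics, gave 0.025. Slc25a34, Slc25a45, Slc25a53 and Slc25a54 gave values between -0.028 and 0.028.

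Promoter windows of 2 carriers are shown because the study concerns the fasted liver and PPARalpha: Slc25a47, the hepatocyte carrier, whose window holds the core element of nuclear receptors such as PPARalpha, and Slc25a25, the carrier with the largest fold change, which has a window with the cyclic AMP response element bound by CREB. Each window runs from 250 bases before to 50 after an annotated start (RefSeq, GRCm38.p6), is printed on the strand of the gene, and carries the matched letters in capitals. The Slc25a47 window is chr12:108850879-108851178 on the + strand and the Slc25a25 window, 1 of its 3, is chr2:32424017-32424316 on the - strand.
Slc25a47: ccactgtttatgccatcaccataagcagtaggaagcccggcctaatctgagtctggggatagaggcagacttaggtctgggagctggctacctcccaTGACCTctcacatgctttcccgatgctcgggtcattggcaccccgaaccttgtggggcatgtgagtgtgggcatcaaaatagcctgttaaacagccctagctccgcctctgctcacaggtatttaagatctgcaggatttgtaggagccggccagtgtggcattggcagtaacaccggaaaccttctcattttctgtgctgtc
Slc25a25: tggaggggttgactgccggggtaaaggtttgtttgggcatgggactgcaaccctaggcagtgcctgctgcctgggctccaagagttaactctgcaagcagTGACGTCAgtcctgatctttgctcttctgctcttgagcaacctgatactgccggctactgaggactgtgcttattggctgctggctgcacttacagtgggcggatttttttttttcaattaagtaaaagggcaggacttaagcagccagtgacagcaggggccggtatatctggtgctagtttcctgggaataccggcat

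The nuclear receptor element was searched as AGGTCA on both strands, and the match in Slc25a47, read as TGACCT, began 153 bases before the start. It occurred in 5 of 40 windows of the 32 carriers with a window (Slc25a34, Slc25a39, Slc25a45, Slc25a47 and Ucp3) and in 16.3% of all 32851 windows. The cyclic AMP element was searched as TGACGTCA, which reads the same on both strands and does not contain the letters of the other element. It began 150 bases before the start in Slc25a25, was in 2 of 40 carrier windows (Slc25a25 and Slc25a36) and in 1.79% of all windows. A match is a description of the letters and not a bound site. The log2 fold changes of these genes were -0.060 for Slc25a47, 0.22 for Slc25a25, -0.082 for Slc25a36, 0.033 for Ucp3 and 0.0051 for Slc25a39. Those of Slc25a34 and Slc25a45 were -0.028 and 0.028.

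Probe sets of the same carrier often differed in sign. Of 25 carriers with 2 or more probe sets, 11 had a single sign over all of them and 14 did not. Of the 12 with at least 2 probe sets of mean intensity 50 or more, 8 had a single sign and 4 did not (Slc25a30, Slc25a39, Slc25a44 and Ucp2). The probe sets of Slc25a10 gave 0.14 and 0.19. Slc25a42 had 1 further probe set, at a mean intensity of 21.8, with a log2 fold change of -0.078. Slc25a25 gave 0.22, 0.048 and 0.0099 over its 3 probe sets. Slc25a46 (0.025 and 0.034) and Slc25a51 (0.023 and 0.030) gave near-equal values on both.

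**Figure D4:**
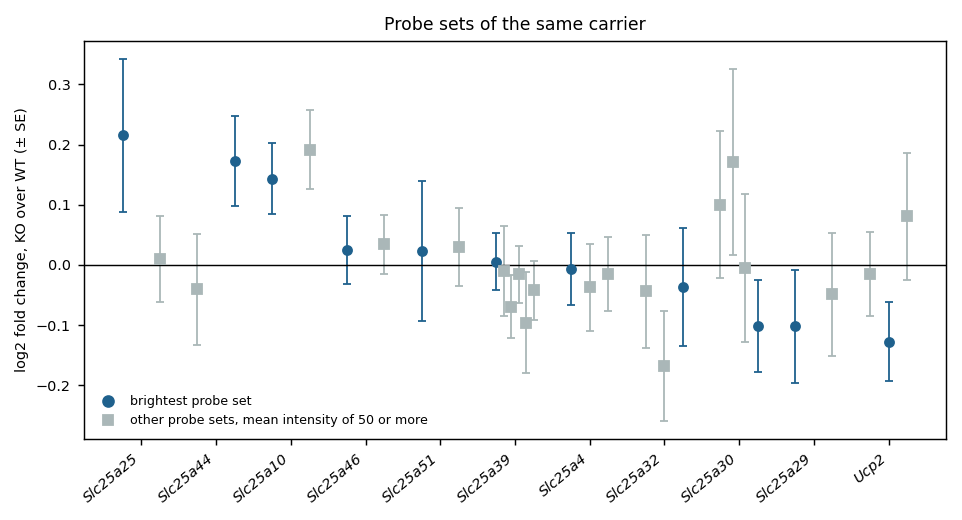
Log2 fold change, KO over WT, with its SE from limma for each probe set of mean intensity 50 or more, for 11 carriers with at least 2 of them. Circles are the brightest probe sets, used for the gene, and squares the others. Both Slc25a10 probe sets lie at 0.14 or above, while those of Slc25a44, Slc25a30, Slc25a39 and Ucp2 lie on both sides of 0.

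Carriers that are direct neighbours among protein-coding genes did not share a direction in every case. The pairs were Slc25a29 and Slc25a47 on chromosome 12 (-0.10 and -0.060), Slc25a41 and Slc25a23 on chromosome 17 (0.056 and 0.12), Slc25a54 and Slc25a24 on chromosome 3 (-0.0091 and 0.082), and Ucp3 and Ucp2 on chromosome 7 (0.033 and -0.13). None of these 8 genes passed the test.

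Signal was near background for part of the group. Of 43 carriers, 33 were above the array median on all 12 arrays, 6 on some, and 4 on none (Slc25a2, Slc25a41, Slc25a53 and Slc25a54). On the scale with the offset, changes of the dim carriers are understated.

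Genes that work beside the carriers were given by list. Of 21 other mitochondrial transporters and channels, 0 passed after adjustment with limma. An unadjusted p under 0.05 was found for 3, all lower in KO, against 3.16% of all genes lower at that level. Slc8b1, the mitochondrial sodium/calcium exchanger, read 406 ± 31.6 in KO and 500 ± 96.4 in WT (log2 fold change -0.26, limma adjusted p = 0.747). Micu2, a regulator of the calcium uniporter, read 353 ± 18.6 in KO and 388 ± 19.0 in WT (-0.12, limma adjusted p = 0.747). Sfxn2, a sideroflexin, read 79.0 ± 9.55 in KO and 92.4 ± 9.75 in WT (-0.14, limma adjusted p = 0.772). Without the KO arrays titled -2, Slc8b1, Micu2 and Sfxn2 gave -0.27, -0.12 and -0.073. Without WT replicate 6 the same genes gave -0.18, -0.11 and -0.11. The median of the list was 0.0069, and 12 of 21 were above 0.

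Of 8 measured enzymes of the malate-aspartate and citrate shuttles, 6 were above 0 with a median of 0.029. Against 6.3% of all genes, 1 of the 8 had an unadjusted limma p under 0.05. This was Aco1, the cytosolic aconitase, at 4280 ± 159 in KO and 3943 ± 245 in WT (0.12, limma adjusted p = 0.772). All 9 iron and heme partners of the mitoferrins were above 0, with a median of 0.069, and 0 had an unadjusted limma p under 0.05. The largest was Alas1, which starts heme synthesis, at 4511 ± 1180 in KO and 3669 ± 1408 in WT (0.37, limma adjusted p = 0.867). WT replicate 1 read 1269, against 3234 to 5256 in the other 5 WT mice, and without it the Alas1 log2 fold change was 0.099. The same mouse had the lowest mean of the whole list, -0.22 against -0.079 or above in the other 11 mice. Of 10 genes for the import of carriers into the inner membrane, 7 were above 0 with a median of 0.043, and 0 had an unadjusted limma p under 0.05. Timm9 and Timm10, the small chaperones that escort carriers between the membranes, gave 0.095 and 0.085.

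**Figure D5:**
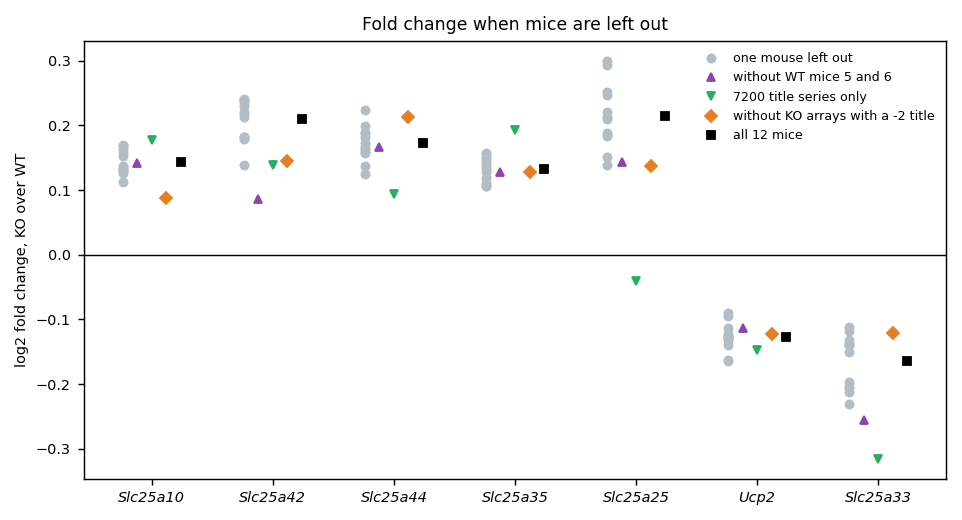
Log2 fold change, KO over WT, of 7 carriers with all 12 mice (black squares), with 1 mouse left out (grey), without WT replicates 5 and 6, in the 7200 title series alone, and without the 3 KO arrays titled -2. Slc25a25 stands at -0.041 in the 7200 series, Slc25a42 at 0.087 without WT replicates 5 and 6, and Slc25a10 at 0.087 without the arrays titled -2.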

How the data were processed

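The authors deposited linear intensities. The submitters' processing notes list RMA without a version, yet the values reach 0 and are not logged. The value table and the authors' deposited table hold equal intensities in all 540444 cells. The authors' table adds a signed fold change (a score) and an unadjusted p-value, per the file headers. Its block of symbols stands out of row order, so probe sets were assigned by the gene number beside them (36239) or by joining accessions (943). They were named from RefSeq (GRCm38.p6). Of the 45037 probe sets, 1389 matched several genes and 6466 matched none, and these were left out of the gene test. Precision is limited by having 6 arrays per genotype.

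The test was limma 3.58.1 in R 4.3.3 (lmFit, eBayes) on log2(intensity + 50), two-sided, over 17997 genes, and was tested on simulated data. The written design allowed for log2 values, and the offset was used as the values are linear. Mice were grouped by labelled genotype and numbered in record order. Which mice shared a litter or an array batch is not stated. Members and lists were chosen with earlier results of these data known. 1 measured carrier counts in the totals and is not reported here. Named carriers were 15 fixed ones and the 8 per direction with the smallest p. Correlations used 100000 permutations, or all of them within genotype.

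Alternatives were offsets of 16 and 1, a floor of 10, quantile normalization, median centring, a minimum mean of 50, means over probe sets, an intensity trend, the title series, title suffixes and leaving out mice. The values of Alas1, Slc8b1, Micu2 and Sfxn2 without some mice and the correlations within the 7200 series were chosen after seeing the data.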

Additional observations from a re-analysis of the deposited data

Results flagged for a closer look

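Among the 25 named carriers, 50 groups of 6 mice were screened for a mouse far from the rest of its group. Gap and range were taken on log2(intensity + 50), while the intensities below are linear. The screen found 3, where chance gives about 1 in 20. Slc25a22 in KO replicate 2 read 1042 against 1323 to 1455 in the other 5 KO mice, a gap of 0.713 of the log2 range of the group. Slc25a1 in WT replicate 6 read 1578 against 1423 to 1467 in the other 5 WT mice, a gap of 0.711. Slc25a37 in KO replicate 3 read 224 against 329 to 400 in the other 5 KO mice, a gap of 0.653. Without these mice the log2 fold changes were 0.13 for Slc25a22, 0.077 for Slc25a1 and 0.19 for Slc25a37.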

How the results depend on the processing

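Under all alternatives run, 0 carriers passed the adjusted threshold, the authors' P-values with Benjamini-Hochberg adjustment included. The count of carriers at an unadjusted p under 0.05 was 4. It was 2 with an offset of 1, 2 with a term for title series and 1 without the KO arrays titled -2. Without WT replicates 5 and 6 it was 2, and on leaving out 1 mouse 0 to 5. Of all 17997 genes, 1133 had such a p with all mice. In the same settings the counts of all genes were 1033, 1056, 754, 940, and 900 to 1348. The carriers counted also differed: with a term for title series they were Slc25a10 (higher) and Slc25a33 (lower), without the KO arrays titled -2 Slc25a30 (lower), and without WT replicates 5 and 6 Ucp3 (higher) and Slc25a33 (lower). The median log2 fold change of the carriers was -0.019 in the 7200 title series alone and 0.0043 to 0.028 on leaving out 1 mouse. In the 7200 series alone the groups of 3 carriers did not overlap (5 KO against 2 WT mice). With 2 WT mice groups separate easily, and the share of all genes in that setting is not given here. The count of 3 is therefore not a result about the carriers. Of 25 named carriers, 12 kept their sign under all 24 alternatives, and Slc25a24 and Slc25a35 kept it under those that could be run, as both were too dim for the minimum mean of 50. Signs turned for Slc25a51 with quantile normalization (-0.0004), in the 7200 series (-0.010) and without the KO arrays titled -2 (-0.049), and for Slc25a4 with arrays centred on their median (0.0014) and without the KO arrays titled -2 (0.025). They also turned for Slc25a30 as the mean over probe sets (0.015), for Slc25a22 (-0.019), Slc25a25 (-0.041) and Slc25a37 (-0.011) in the 7200 series, and for Slc25a1 (-0.0036) and Slc25a48 (0.0052) without the KO arrays titled -2. On leaving out 1 mouse, values ran from -0.040 to 0.021 for Slc25a4, -0.047 to 0.12 for Slc25a51, -0.060 to 0.0009 for Slc25a11, -0.0002 to 0.028 for Slc25a3 and -0.015 to 0.10 for Ucp3. The correlation of Slc25a37 with erythroid markers was -0.049 and -0.18 with offsets of 16 and 1, -0.063 without the KO arrays titled -2, and -0.16 to 0.22 on leaving out 1 mouse. That of Ucp2 with macrophage markers was 0.74 without the KO arrays titled -2, a setting whose p-value is not given here. On leaving out 1 mouse it was 0.33 to 0.72. Among those settings with 1 mouse left out, it was past an unadjusted threshold of 0.05 without KO replicate 4 or WT replicate 4. That of Ucp3 with PPARalpha targets was 0.31 without WT replicates 5 and 6 and -0.61 to -0.28 on leaving out 1 mouse. Apart from these settings, whose cause was not tested, no call on the carriers or these correlations changed. The call of Sirt4 did change. Of all genes, 0 passed the adjusted threshold with offsets of 16 and 1, a floor of 10 or a term for title series. The same held in the 7200 series alone, without WT replicates 5 and 6, and without some single mice, such as WT replicate 1. No paired analysis was possible because replicates were numbered in record order and the labels pair no mice.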
